A study of Mus musculus with 7 samples.

Results

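The genes described here are the H3K4 demethylases of the oocyte: Kdm1a, Kdm1b, Kdm5a, Kdm5b and Kdm5c, 5 genes among 33437 oocyte transcripts measured by single-cell RNA-seq. They were chosen by name. The deposited table names 2 of them, Kdm5b and Kdm5c, on a transcript of the same strand, and that was the rule for choosing a transcript. For the other 3 genes no transcript met it, because the table gives the transcript at the gene the name of a gene on the opposite strand (Luzp1 at Kdm1a, Tpmt at Kdm1b and Ccdc77 at Kdm5a). These 3 were found instead by position, as the transcript on the same strand with the span of the gene in GENCODE release M21. All 5 were detected in every library, and all 5 passed the filter on low values.

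Germinal vesicle (GV) oocytes, fully grown and not yet resumed in meiosis, were taken from females aged 21 days of the strain labelled C57BL6 (C57BL/6OlaHsd in the study's methods), and each library held 1 oocyte. By the labels every female was homozygous for a floxed Setd1b allele. The females of the Setd1b cKO (4 libraries) are labelled as also carrying Gdf9-Cre, a transgene whose promoter is active in oocytes, and those of the Setd1b WT (3 libraries) as lacking it. The study's methods also allow, as WT, females with Gdf9-Cre and a wild-type allele beside the deleted one, and do not say which WT females gave these libraries. Which oocytes had a mother in common is not stated, so that the p-values measure the spread between these libraries.

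Methylation of histone H3 at lysine 4 (H3K4) is laid down by enzymes such as SETD1B and removed by the demethylases of 2 families. KDM1A and KDM1B are flavin-dependent amine oxidases, which take off the mono- and dimethyl marks and cannot act on the trimethyl mark. KDM5A, KDM5B and KDM5C are JmjC enzymes, dependent on iron and oxoglutarate, that act on the tri- and dimethyl marks. In oocytes KDM1B is known for its part in setting up DNA methylation at imprinted genes, maternal KDM1A is needed by the early embryo, and KDM5A and KDM5B are known from the removal of broad H3K4me3 domains after fertilization.

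The sequences before the annotated starts are shown because the CpG content of promoters is a sequence feature known to guide H3K4 methyltransferases, through CpG-binding proteins of their complexes. RefSeq promoters (GRCm38.p6) were matched by symbol for 4 of the 5 genes. The 250 bases that end at the RefSeq start are given for 3 of them, 5′ to 3′ on the strand of the gene, with each CpG in capitals. They lie at chr4:136602724-136602973 on the minus strand (Kdm1a), chr13:47043249-47043498 on the plus strand (Kdm1b) and chr1:134559928-134560177 on the plus strand (Kdm5b).
Kdm1a: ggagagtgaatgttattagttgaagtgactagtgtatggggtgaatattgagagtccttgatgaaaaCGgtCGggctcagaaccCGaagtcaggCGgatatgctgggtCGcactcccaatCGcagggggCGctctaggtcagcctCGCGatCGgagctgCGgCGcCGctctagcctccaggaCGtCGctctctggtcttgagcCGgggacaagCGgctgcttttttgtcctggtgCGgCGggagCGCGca
Kdm1b: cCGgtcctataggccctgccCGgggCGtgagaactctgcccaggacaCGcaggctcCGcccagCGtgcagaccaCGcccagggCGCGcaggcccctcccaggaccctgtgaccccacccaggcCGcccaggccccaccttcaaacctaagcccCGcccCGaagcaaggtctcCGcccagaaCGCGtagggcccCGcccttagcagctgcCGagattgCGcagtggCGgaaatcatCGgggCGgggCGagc
Kdm5b: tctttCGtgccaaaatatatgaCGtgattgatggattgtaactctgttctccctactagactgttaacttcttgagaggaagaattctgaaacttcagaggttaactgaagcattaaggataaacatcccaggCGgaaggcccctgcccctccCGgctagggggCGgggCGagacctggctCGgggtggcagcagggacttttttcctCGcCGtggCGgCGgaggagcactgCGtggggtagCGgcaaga
CG was counted, which reads the same on both strands. The Kdm1b stretch held 22 CpGs, and 14.8% of all 32851 RefSeq promoter windows of that length held at least as many. The Kdm1a stretch held 21 (16.3% with at least as many) and the Kdm5b stretch 13 (31.5%), where the median of all windows was 6. The Kdm5c stretch, not printed since most of it lies inside the gene as annotated in GENCODE, held 10 (37.8%).

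The oocyte transcripts did not all start where the annotation places the gene. The Kdm5b transcript (chromosome 1, 134560170 to 134634237, plus strand) began 1 base before the annotated gene. The Kdm5a transcript (chromosome 6, 120364062 to 120444574, plus strand) began 62 bases and the Kdm5c transcript (chromosome X, 152232928 to 152279094, plus strand) 92 bases before it. The Kdm1b transcript (chromosome 13, 47043277 to 47084600, plus strand) began 222 bases before it, so that most of the Kdm1b stretch printed above lies within the oocyte transcript. The Kdm1a transcript (chromosome 4, 136550540 to 136612787, minus strand) extended 10064 bases upstream of the annotated gene, so that the whole of its stretch does too. These spans come from the set of oocyte transcripts used by the authors, and their starts were not checked against reads.

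Neighbouring transcripts bear on 2 of the genes, since it is not stated whether reads were counted by strand. The first 1461 bases of the Kdm1b transcript overlap the minus-strand transcript of Tpmt, which was at 272 to 479 RPM (reads scaled to the mapped reads of the library). Dek, on the minus strand next to Kdm1b, is listed in the table under the name Kdm1b and was at 29.8 to 54.4 RPM. That row was not used for Kdm1b. In the annotation 9.19% of the exon bases of Kdm1b are shared with exons of Dek and 1.77% of those of Kdm5a with exons of Ccdc77, and Kdm1a, Kdm5b and Kdm5c share none with another gene.

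Libraries held between 8582493 and 12972366 mapped reads, a single read was worth 0.0771 to 0.117 RPM, and the limit that 0 reads allow (3 reads in a library) was 0.231 to 0.350 RPM. These limits and the intervals on reads cover counting error alone. The targeted gene gave no check of the labels: Setd1b was at 2.68 to 16.7 RPM in the cKO and 8.61 to 17.7 RPM in the WT, over a transcript that holds more than the floxed segment. Oocyte markers (9 of 10 in the table, summed) were at 20905 to 21468 RPM in the cKO and 24816 to 25879 RPM in the WT. Markers of granulosa and cumulus cells (13 of 14 in the table, summed) were at 75.7 to 88.5 RPM in the cKO and 51.3 to 70.6 RPM in the WT. Of these, Foxl2, Amh, Inhba, Amhr2 and Has2 were under 1 RPM in every library. Nr5a2 (27.4 to 50.8 RPM over all libraries) and Cyp19a1 (17.1 to 30.6 RPM) were the highest. Inha was at 0.583 to 13.2 RPM in the cKO and 0 to 4.32 RPM in the WT. Both sums differed between the genotypes without overlap, and their part in the values below was not tested. RPM is a share of the RNA of an oocyte, and a change in its total amount cannot be seen.

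Whether the enzymes that remove H3K4 methylation changed in expression when the methyltransferase SETD1B was deleted was asked for each gene. None of the 5 demethylases was past the threshold, which asked for a change over 2-fold with a Benjamini-Hochberg adjusted p under 0.05 in limma, and the libraries of the genotypes overlapped in all 5. Of the 18179 transcripts tested (called genes below), 5.71% were past the threshold, 3.76% as higher and 1.95% as lower in the cKO, and 20.3% had no overlap between the libraries of the genotypes. At an unadjusted p under 0.05 in limma, which 21.7% of all tested genes had, the number of demethylases was also 0. It was 0 past the threshold with voom on the recovered reads. Fold changes below are differences of mean log2(RPM + 1), cKO minus WT, a scale that makes changes of low genes look smaller. Over the tested genes their median was 0.12.

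**Figure D1:**
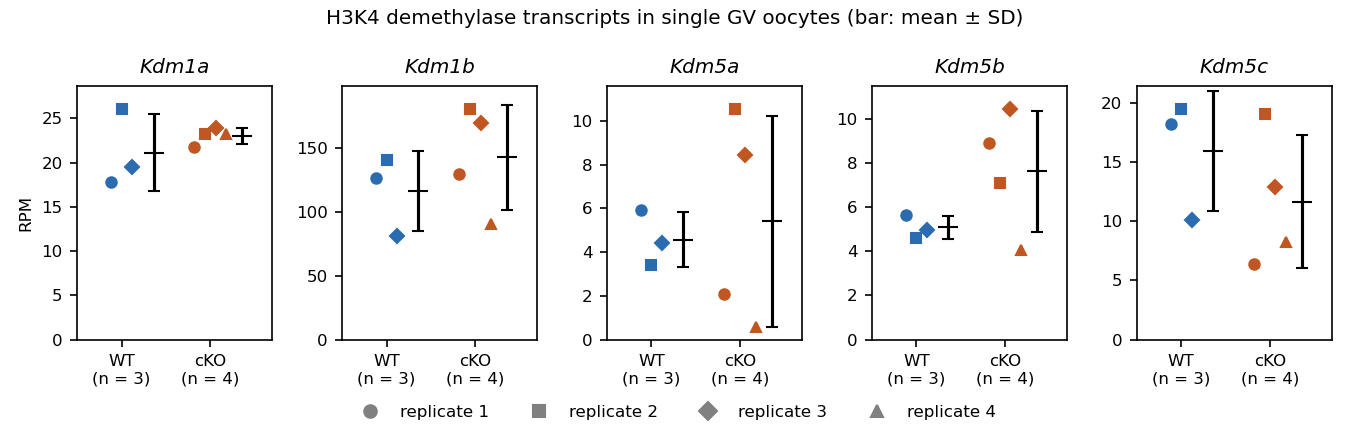
RPM (linear axis from 0) of the 5 demethylase transcripts in each library, WT in blue and cKO in orange, with the marker shape giving the replicate number and the bar the mean ± SD. The genotypes overlapped for every gene, and Kdm5a ran from 0.583 to 10.5 RPM within the cKO.

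Kdm1a, the amine oxidase of the CoREST complex, was the steadiest of the 5. It was at 21.8, 23.2, 23.9 and 23.2 RPM in cKO replicates 1 to 4 and at 17.8, 26.1 and 19.6 RPM in WT replicates 1 to 3. All 4 cKO libraries lay between the lowest and the highest WT library. The means were 23.0 ± 0.909 RPM (SD, n = 4) and 21.1 ± 4.34 RPM (SD, n = 3). The log2 fold change of 0.14 (limma SE 0.22, adjusted p = 0.788) had a 95% interval from -0.35 to 0.62. Its sign followed the scaling, and it was -0.021 when the median gene of every library was set equal.

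Kdm1b, the amine oxidase known for imprint establishment, was the most abundant of the 5. It was at 130, 180, 170 and 90.4 RPM in cKO replicates 1 to 4 and at 126, 141 and 80.7 RPM in WT replicates 1 to 3. In the cKO 2 libraries were above every WT library, while the lowest library of each genotype, cKO replicate 4 and WT replicate 3, lay far below the others. The means were 142 ± 41.0 RPM (SD, n = 4) and 116 ± 31.3 RPM (SD, n = 3). The log2 fold change of 0.28 (limma SE 0.29, adjusted p = 0.637) had a 95% interval from -0.36 to 0.93.

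For these 2 genes the 95% interval did not reach a 2-fold change in either direction, a log2 fold change of 1. For Kdm1a this held in all 22 alternatives tried and for Kdm1b in 16 of them. For the 3 Kdm5 genes the interval reached past 2-fold in at least 1 direction, so that these libraries do not decide whether they changed by 2-fold: upward for Kdm5b, downward for Kdm5c and either way for Kdm5a.

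Among the 3 Kdm5 genes, Kdm5b was the only one with a log2 fold change above 0. It was at 8.91, 7.08, 10.4 and 4.08 RPM in cKO replicates 1 to 4 and at 5.67, 4.63 and 4.96 RPM in WT replicates 1 to 3. In the cKO 3 libraries were above every WT library, and replicate 4 was below every WT library. The means were 7.63 ± 2.74 RPM (SD, n = 4) and 5.08 ± 0.533 RPM (SD, n = 3). The log2 fold change of 0.44 (limma SE 0.32, adjusted p = 0.474) had a 95% interval from -0.26 to 1.15. Without cKO replicate 4 it was 0.68 (limma adjusted p = 0.162).

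Kdm5c, the X-linked member of the family, had the lowest log2 fold change of the 5. It was at 6.43, 19.1, 12.9 and 8.27 RPM in cKO replicates 1 to 4 and at 18.2, 19.5 and 10.1 RPM in WT replicates 1 to 3. In the cKO 2 libraries were below every WT library and the other 2 lay within the WT range. The means were 11.7 ± 5.65 RPM (SD, n = 4) and 15.9 ± 5.10 RPM (SD, n = 3). The log2 fold change of -0.47 (limma SE 0.37, adjusted p = 0.521) had a 95% interval from -1.30 to 0.35. It stayed below 0 in all 22 alternatives, between -0.75 and -0.25.

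Kdm5a was the most variable. It was at 2.08, 10.5, 8.45 and 0.583 RPM in cKO replicates 1 to 4, which were 21, 128, 97 and 5 reads, and at 5.91, 3.39 and 4.40 RPM in WT replicates 1 to 3, or 73, 44 and 47 reads. Of the cKO libraries, 2 were above every WT library and 2 below. The exact Poisson 95% interval of the lowest library, cKO replicate 4, ran from 0.189 to 1.36 RPM, and that of cKO replicate 2 from 8.79 to 12.5 RPM. The 2 intervals did not overlap. The means were 5.41 ± 4.83 RPM (SD, n = 4) and 4.57 ± 1.27 RPM (SD, n = 3). The log2 fold change of -0.19 (limma SE 0.61, adjusted p = 0.903) had a 95% interval from -1.54 to 1.16. Without cKO replicate 4 it was 0.34 (limma adjusted p = 0.700). Its sign also turned without cKO replicate 1 (0.025), with a pseudocount of 5 RPM (0.0032) and with library quality weights (0.13).

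The 5 genes differed in level by far more than the genotypes did. Levels between genes are compared as RPM per kb of the longest annotated protein-coding transcript (3.03 kb for Kdm1a, 4.99 for Kdm1b, 6.45 for Kdm5c, 8.71 for Kdm5b and 10.9 for Kdm5a). Reads were counted over the oocyte transcripts, whose spans differ from the annotation. The Kdm5c transcript ran 4559 bases past the annotated end of the gene, and those of Kdm5b and Kdm1b ended before it. The Kdm1a transcript extended 10064 bases upstream. The effect of these differences on the levels per kb was not tested. Kdm1b had means ± SD of 28.6 ± 8.21 RPM per kb over the 4 cKO libraries and 23.2 ± 6.27 over the 3 WT libraries, a level per kb above that of 80.6% of the 13445 tested genes with a symbol and a length. Kdm1a followed at 7.61 ± 0.300 RPM per kb in the cKO and 6.98 ± 1.43 in the WT, above 58.3% of those genes. The JmjC members were lower. Kdm5c was at 1.81 ± 0.876 RPM per kb in the cKO and 2.47 ± 0.790 in the WT (above 31.5%), Kdm5b at 0.876 ± 0.314 and 0.583 ± 0.0612 (above 12.3%), and Kdm5a at 0.495 ± 0.441 and 0.417 ± 0.116 (above 6.10%).

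Over the 7 libraries Kdm1b (16.2 to 36.1 RPM per kb) did not overlap Kdm1a (5.88 to 8.60), nor Kdm1a Kdm5c (0.998 to 3.02). Kdm5c overlapped Kdm5b (0.468 to 1.20), and Kdm5b overlapped Kdm5a (0.0532 to 0.963), so that over all libraries these neighbours in the order were not apart. Within single libraries Kdm5c was above Kdm5b in 6 of 7, with cKO replicate 1 the exception, and in the WT their ranges were apart (1.57 to 3.02 and 0.531 to 0.651 RPM per kb). Kdm5b was above Kdm5a in 6 of 7 libraries, with cKO replicate 2 the exception. With all annotated exon bases as the length, the order of the 5 means over the 7 libraries was the same, from 23.9 RPM per kb for Kdm1b, but Kdm5b (0.395) and Kdm5a (0.357) came close to each other. Kdm5b was then above Kdm5a in 4 of 7 libraries and Kdm5c above Kdm5b in all 7. Differences in the coverage of long and short transcripts enter such levels and were not measured here.

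**Figure D2:**
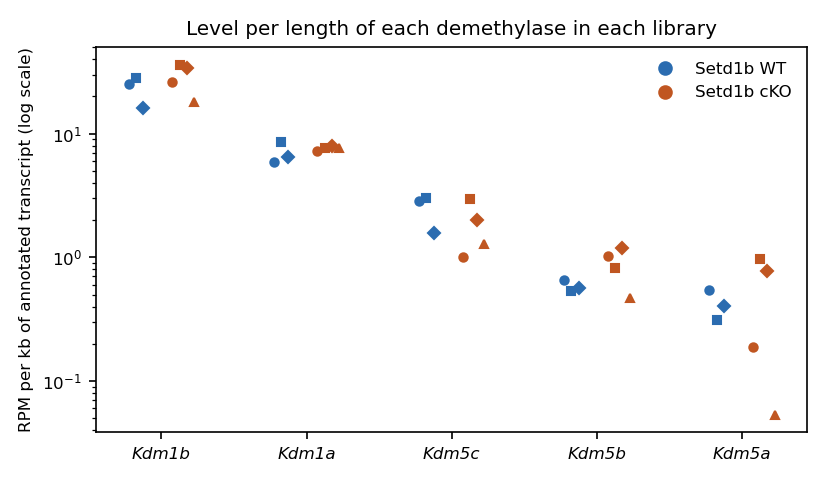
RPM per kb of annotated transcript (log axis) of each demethylase in each library, WT in blue and cKO in orange, genes ordered by their mean. Kdm1b lay above Kdm1a and Kdm1a above Kdm5c in every library, while the ranges of Kdm5c and Kdm5b, and of Kdm5b and Kdm5a, overlapped over all libraries.

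The balance of the enzymes within an oocyte does not depend on how libraries are scaled to each other, and 3 ratios of levels per kb were compared with two-sided exact permutation tests, which cannot give a p below 0.0286 with 4 and 3 libraries. The ratio of Kdm1b to Kdm1a was 3.62, 4.71, 4.30 and 2.37 in cKO replicates 1 to 4 and 4.30, 3.28 and 2.51 in WT replicates 1 to 3. The genotypes overlapped, with a log2 difference of 0.15 (exact p = 0.657, Benjamini-Hochberg adjusted over 3 ratios 0.971). The ratio of Kdm5b to Kdm5a was 5.38, 0.844, 1.55 and 8.79 in the cKO and 1.20, 1.71 and 1.42 in the WT, a log2 difference of 0.97 (exact p = 0.371, adjusted 0.971). The WT libraries lay close together, with 2 cKO libraries above them, 1 below and 1 among them. The ratio of Kdm5c to Kdm5a was 5.25, 3.08, 2.59 and 24.1 in the cKO and 5.23, 9.76 and 3.90 in the WT, a log2 difference of -0.05 (exact p = 0.971, adjusted 0.971).

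The members also differed in how far libraries of 1 genotype lay apart. The SD within genotypes on the log2(RPM + 1) scale was 1.07 for Kdm5a, larger than in 98.5% of the 3385 genes tested within 0.5 of its mean level. For Kdm5c it was 0.58 (larger than in 82.3% of such genes), for Kdm1b 0.44 (68.4%), for Kdm5b 0.40 (45.1%) and for Kdm1a 0.18 (8.88%). Kdm5b, with the second longest transcript of the 5, had the second smallest SD, while among the other members the SD rose with transcript length. The part of length in these SDs was not tested.

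Libraries also differed in the levels of long against short transcripts over all genes. Among 10107 genes with a symbol, a length and a mean of at least 4 RPM, the 2529 with the longest transcripts (from 4.43 kb) had a median deviation from the genotype mean of -0.18 in cKO replicate 4 and -0.13 in WT replicate 3. The 2527 with the shortest (up to 1.63 kb) had 0.19 and 0.20. In the other 5 libraries the longest minus the shortest was between -0.02 and 0.30. Of the members, Kdm5a, Kdm5b and Kdm1b were lowest of the cKO libraries in replicate 4, with deviations of -1.60, -0.70 and -0.60 on the log2 scale, and Kdm1b and Kdm5c were lowest of the WT libraries in replicate 3. Kdm1a deviated by 0.01 in cKO replicate 4 and by -0.09 in WT replicate 3. The members with the longest transcripts, Kdm5a and Kdm5b, deviated by -0.02 and -0.03 in WT replicate 3. In cKO replicate 1, where the longest minus the shortest was 0.06, Kdm5a deviated by -0.64 and Kdm5c by -0.66. The part of transcript length in the values of the members was not tested. Without both libraries the log2 fold changes were 0.09 for Kdm1a, 0.25 for Kdm1b, 0.33 for Kdm5a, 0.67 for Kdm5b and -0.64 for Kdm5c, none past the threshold (limma adjusted p from 0.198 to 0.870).

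**Figure D3:**
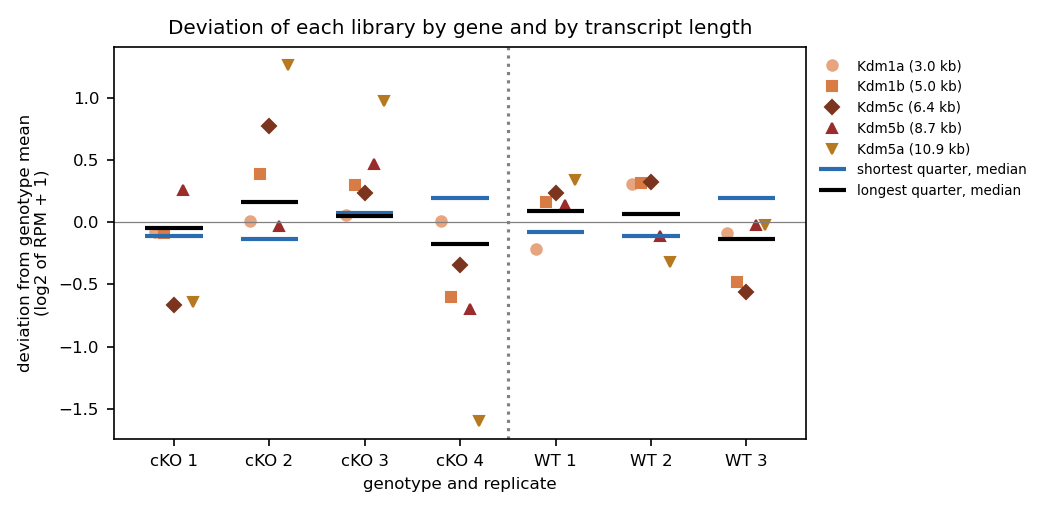
Deviation of each library from the mean of its genotype (log2 of RPM + 1) for the 5 demethylases, with the annotated length of each transcript, and the median deviation of the 2527 genes with the shortest (blue line) and the 2529 with the longest (black line) transcripts. In cKO replicate 4 and WT replicate 3 the longest lay below 0 and the shortest above, and Kdm5a deviated most, by -1.60 in cKO replicate 4.

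For each member the 2 genes with the most similar profile over the 7 libraries were found, as the smallest root mean square difference of log2(RPM + 1) profiles, each centred on its own mean, among 8220 genes with a symbol and at least 8 RPM on average. For Kdm1a they were Fam72a (0.05) and Rhot1 (0.07), for Kdm1b Gnai3 (0.08) and Gpr107 (0.08), for Kdm5b Tgs1 (0.12) and Entr1 (0.13), and for Kdm5c Trpm7 (0.17) and Awat2 (0.19). For Kdm5a the nearest were Gm29427 and Zfp281, both at 0.37, and no gene came within 0.2. Within that distance there were 515 genes for Kdm1a, 272 for Kdm1b, 26 for Kdm5b and 3 for Kdm5c. With means under 8 RPM, Kdm5a and Kdm5b could not be found as the nearest gene of another member.

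The demethylases act in complexes, and 18 known partners were examined. Of 15 tested, 2 rose past the threshold in the cKO, 0 fell and 13 were not past it. The median log2 fold change of the list was 0.03, beside 0.12 over all tested genes, of which 3.76% rose past the threshold. Both genes that rose are partners of a demethylase on chromatin: Hdac1 encodes the deacetylase that joins KDM1A in the CoREST complex, and Zmynd8 a reader of histone marks known as a partner of KDM5C.

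Hdac1 (chromosome 4, 129516104 to 129542713) was at 60.6, 60.9, 60.9 and 55.8 RPM in cKO replicates 1 to 4 and at 22.7, 22.6 and 17.6 RPM in WT replicates 1 to 3. Every cKO library was above every WT library. The means were 59.5 ± 2.48 RPM (SD, n = 4) and 21.0 ± 2.91 RPM (SD, n = 3), with a log2 fold change of 1.47 (limma SE 0.20, adjusted p = 0.00417). Hdac1 was past the threshold in all 22 alternatives, with log2 fold changes from 1.32 to 1.55. RefSeq lists a pseudogene copy, Hdac1-ps, on chromosome 17. The authors removed hits of low mapping quality, and whether reads were shared with the copy was not tested.

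Zmynd8 (chromosome 2, 165784152 to 165899059) was at 355, 252, 251 and 557 RPM in cKO replicates 1 to 4 and at 90.1, 104 and 176 RPM in WT replicates 1 to 3. The genotypes did not overlap. The highest library of each was cKO replicate 4 and WT replicate 3, which were the lowest for Hdac1. The means were 354 ± 144 RPM (SD, n = 4) and 123 ± 46.0 RPM (SD, n = 3), with a log2 fold change of 1.49 (limma SE 0.33, adjusted p = 0.0248). Zmynd8 lost the threshold without cKO replicate 1 (limma adjusted p = 0.0680), WT replicate 1 (0.113) or WT replicate 2 (0.120). It was also lost when the median genes of the libraries were set equal (0.0514) or no filter was used (0.151). In these cases its log2 fold change ran from 1.30, without WT replicate 1, to 1.49. Without both cKO replicate 4 and WT replicate 3 the log2 fold change was 1.53 (limma adjusted p = 0.000385).

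**Figure D4:**
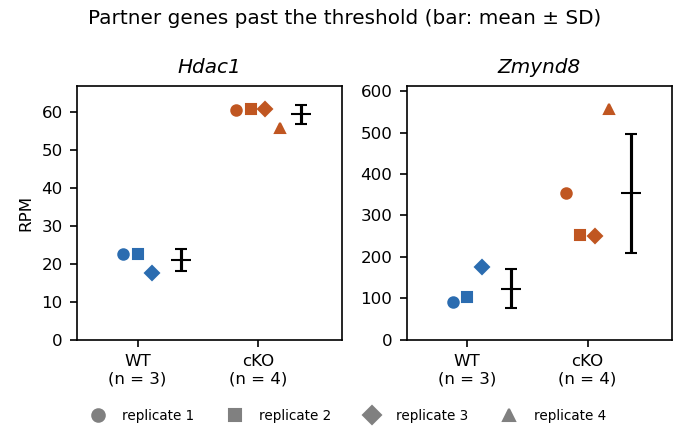
RPM (linear axis from 0) of Hdac1 and Zmynd8 in each library, WT in blue and cKO in orange, with the mean ± SD. For Hdac1 the cKO libraries sat between 55.8 and 60.9 RPM and the WT libraries between 17.6 and 22.7 RPM.

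Of the other partners, Glyr1 and Hdac2 were near 0 in log2 fold change. Others lay further from 0, among them Rcor3 at 0.46 (95% interval -0.58 to 1.51) and Hmg20b at -0.55 (-1.27 to 0.18). Glyr1, the cofactor of KDM1B on nucleosomes, had means ± SD of 62.9 ± 7.79 RPM over the 4 cKO and 61.8 ± 11.6 RPM over the 3 WT libraries, a log2 fold change of 0.03 (95% interval -0.44 to 0.51). Hdac2, the other deacetylase of CoREST, was at 35.8 ± 3.16 and 35.1 ± 4.30 RPM, a log2 fold change of 0.03 (95% interval -0.43 to 0.48). For both the interval did not reach a 2-fold change. Rcor2, a scaffold of CoREST, was below the filter on low values, at most 0.247 RPM.

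The remaining JmjC histone demethylases were compared in the same fit. Of 17 genes, 14 were tested, 0 rose and 0 fell past the threshold, and 0 had an unadjusted p under 0.05 (voom also gave 0 past the threshold). Their median log2 fold change was 0.08. The highest log2 fold changes were those of Kdm2a, an H3K36 demethylase (0.60, limma adjusted p = 0.349), and Kdm8 (0.51, 0.614). The lowest were those of Kdm4b, an H3K9 demethylase (-0.63, 0.482), and Kdm6a, the X-linked H3K27 demethylase (-0.41, 0.302). Kdm4c and Kdm4d were below the filter on low values. Among the opposing H3K4 methyltransferases, 5 were tested with a median log2 fold change of -0.38 and 0 past the threshold, from Setd1a (-0.64) to Kmt2c (0.39), and 4 of the 5 lay below 0. Setd1b itself, the targeted gene, was 1 of these 4 (-0.61). For 2 of the 5, Setd1a and Kmt2b, there was no overlap between the genotypes, as for 20.3% of all tested genes. At an unadjusted p under 0.05, which 21.7% of all tested genes had, there was 1, Setd1a (limma adjusted p = 0.180).

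**Figure D5:**
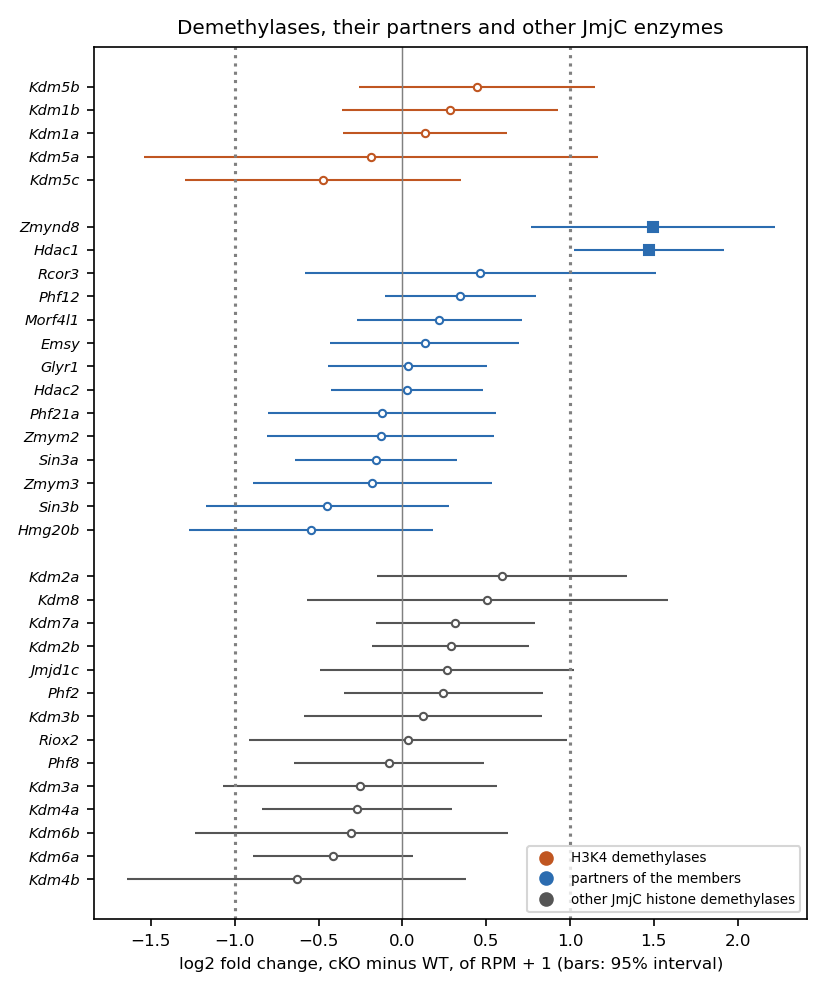
Log2 fold change of RPM + 1, cKO minus WT, with its 95% interval for the 5 demethylases (orange), 14 of the 15 tested partners (blue) and the other JmjC demethylases (gray), with filled squares for genes past the threshold and dotted lines at a 2-fold change. Hdac1 (1.47) and Zmynd8 (1.49) stood apart, and no demethylase was past the threshold.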

How the data were processed

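Single-oocyte RNA-seq libraries (4 Setd1b cKO, 3 Setd1b WT) were amplified with the SMARTer Ultra Low kit. The authors trimmed the reads, mapped them with Hisat to GRCm38, removed hits of low mapping quality and quantified oocyte transcripts with merged isoforms in SeqMonk. The submitters' processing notes also list bcl2fastq 1.8.4 and featureCounts 1.4.4. What was deposited is log2 RPM, which the authors scaled to mapped reads, with 0.9 read in place of 0. Whole reads came back, within 0.01 read, for 100% of the values under 1000 reads, and RPM was rebuilt from these. Library totals were 8582493 to 12972366 reads.

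A gene took the same-strand transcript to which the table gives its name, the highest mean where there were several (15476 genes). Otherwise it took the same-strand transcript whose overlap with its span in GENCODE M21 was at least 0.5 of their union (3425 genes, among them Kdm1a, Kdm1b, Kdm5a and 7 other list genes). The second step was added after the table was seen. The members and lists were chosen with earlier results of these data known.

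Values were tested as log2(RPM + 1) with limma 3.58.1 (lmFit, eBayes with trend, no covariates) in R 4.3.3, for transcripts that reached 1 RPM in 3 or more libraries, with Benjamini-Hochberg adjustment over all 18179. The threshold was a change over 2-fold with an adjusted p under 0.05. Named were the 5 members, list genes past the threshold or else the 2 highest and 2 lowest of a list, and 2 nearest profiles for each member. Glyr1, Hdac2, Rcor2, Rcor3, Hmg20b, the markers named singly and the genes under the other observations were named after their values were seen. In simulated data with 200 genes changed 4-fold, 96.5% were recovered among 18144 genes, with 8 false calls. The changed genes had means of at least 8 RPM, above those of Kdm5a and Kdm5b. The same degree of spread beyond counting error was set for every gene. The simulation therefore does not give the power to see a 2-fold change in the members. Alternatives were other pseudocounts, filters, scalings, moderation and weights, voom, a replicate block and each library left out. Other work used Python 3.11.15, numpy 2.4.6, pandas 2.3.3, scipy 1.17.1 and matplotlib 3.10.9. Protein sequences were not used here. The values of 1 partner gene are not reported here.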

Additional observations from a re-analysis of the deposited data

Results flagged for a closer look

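In the 4 Setd1b cKO libraries, 10 values were examined for a library far from the others, by setting its distance from the nearest one against the whole range, and 2 were found, where chance gives about 1 in 20 groups. Hdac1 was lower in cKO replicate 4 (55.8 RPM) than in the other cKO libraries (60.6 to 60.9 RPM), with a gap of 0.942 of a narrow range. The ratio of Kdm5c to Kdm5a was higher in cKO replicate 4 (24.1) than in the others (2.59 to 5.25), with a gap of 0.876, and rests on 5 reads of Kdm5a in that library.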

How the results depend on the processing

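No demethylase was past the threshold in any of the 22 alternatives, and neither was any other JmjC demethylase or H3K4 methyltransferase. Kdm1b, Kdm5b and Kdm5c kept their direction in all 22. The log2 fold change of Kdm1a was -0.021 with libraries centred on their median gene. That of Kdm5a was 0.0032 with a pseudocount of 5 RPM, 0.13 with library quality weights, 0.34 with the replicate block, in which cKO replicate 4 has no partner and carries no weight, and 0.33 without cKO replicate 4 and WT replicate 3 together, an alternative chosen after seeing the data. The causes were not tested. Leaving out single libraries gave log2 fold changes from 0.03 to 0.29 for Kdm1a, 0.05 to 0.49 for Kdm1b, -0.61 to 0.34 for Kdm5a (0.02 without cKO replicate 1), 0.29 to 0.68 for Kdm5b and -0.75 to -0.25 for Kdm5c. The log2 ratio differences ran from -0.049 to 0.35 for Kdm1b to Kdm1a (-0.049 without WT replicate 3), 0.42 to 1.55 for Kdm5b to Kdm5a and -0.75 to 0.32 for Kdm5c to Kdm5a (0.24 without cKO replicate 2, 0.32 without cKO replicate 3 and 0.32 without WT replicate 2).

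Of the partners, 1 in place of 2 was past the threshold with no filter, with centring on the median gene and without cKO replicate 1, WT replicate 1 or WT replicate 2 (1 to 2 with single libraries left out). Among all genes 683 were higher and 355 lower, a split that turned to 458 and 531 with centring, 428 and 442 with quantile normalization and 512 and 490 with median of ratios scaling. The higher genes were 315 with a pseudocount of 5 RPM, 174 with no filter (129 lower), 1197 with library quality weights (554 lower), 443 with voom, 1042 at an adjusted p under 0.1 and 1029 without cKO replicate 4 and WT replicate 3. With single libraries left out, 171 to 850 were higher and 109 to 437 lower, with 392 and 221 without cKO replicate 1, 328 and 232 without cKO replicate 3, 238 and 134 without WT replicate 1 and 171 and 109 without WT replicate 2.

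Replicate numbers did not pair the libraries: deviations of same-numbered libraries correlated at 0.19, 0.29 and -0.13 across genes. With the replicate block, 0 demethylases were past the threshold. No gene had a second same-strand transcript to sum among the members, and edgeR on the recovered reads was planned and not run. Voom was the model run on those reads.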

Other observations

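Phf12, Kdm6a and Kdm4a had libraries that did not overlap between the genotypes without passing the threshold, where 20.3% of all genes tested did not overlap. Phf12, a SIN3-associated PHD finger gene, was at 32.7 to 41.7 RPM in the cKO and 27.9 to 31.5 RPM in the WT (log2 fold change 0.34, adjusted p = 0.369 in limma). Kdm6a was at 40.3 to 46.0 RPM in the cKO and 48.3 to 72.5 RPM in the WT (-0.41, adjusted p = 0.302). Kdm4a, an H3K9 and H3K36 demethylase, was at 4.31 to 5.02 RPM in the cKO and 5.16 to 7.21 RPM in the WT (-0.27, adjusted p = 0.607).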
